A study of Arabidopsis thaliana with 9 samples.

Results

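The 10 loci described here control when *Arabidopsis thaliana* flowers, and their transcripts were followed across 9 poly(A) RNA-seq libraries of whole 14-day-old seedlings. They were taken by locus identifier from the 37361 loci of the count tables: *FLC* (AT5G10140), *FLM*, also called *MAF1* (AT1G77080), *MAF2* (AT5G65050), *MAF3* (AT5G65060), *SVP* (AT2G22540), *FT* (AT1G65480), *SOC1* (AT2G45660), *FUL* (AT5G60910), *AGL24* (AT4G24540) and *AGL42* (AT5G62165). All 10 were found in the tables, and all 10 passed the filter on low counts, *FLC* only through the Col libraries. The groups were the genotypes Col (the wild type), *thp1-5* and *sac3bc*, with 3 libraries each. The mutant labels name *THP1*, *SAC3B* and *SAC3C*, genes for parts of the TREX-2 complex, which acts in the export of mRNA from the nucleus. Seedlings of all groups were untreated and grew on diluted MS medium with 1% sucrose at 22 °C in 16 h light and 8 h dark, a long day. The sources used here do not give the nature of the mutations, the number of seedlings pooled or the hour of harvest.

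Total counts ran from 12.8 to 17.9 M per library. In CPM (counts scaled to a common TMM-adjusted library total), *THP1* stood at 12.6 ± 1.32 in the wild type, 11.8 ± 0.787 in *thp1-5* and 6.17 ± 1.03 in *sac3bc* (SD, n = 3 each), so its level does not mark *thp1-5*. *SAC3B* and *SAC3C* were lower in *sac3bc* than in Col by log2 fold changes of −0.87 ± 0.06 and −0.97 ± 0.10 (SE). *SAC3B* was also called lower in *thp1-5* (−0.50 ± 0.06, adjusted p = 1.08e-12, edgeR) and *THP1* in *sac3bc* (−1.03 ± 0.12, adjusted p = 2.92e-14, edgeR), so these falls are not limited to the genes that a label names and do not check the labels. Marker sets of leaf mesophyll, root, phloem and shoot meristem were detected in every group, though the meristem genes *WUS* and *CLV3* had no counts in either mutant. The markers of floral organs were near the floor, summing to 3.79 to 8.73 CPM per library. Nothing in the labels says whether libraries of a group were grown apart, so the p-values rest on library-to-library spread that could be technical.

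Flowering in *Arabidopsis* is gated by repressors that hold back a small set of promoting genes. *FLC*, *FLM*, *MAF2*, *MAF3* and *SVP* encode MADS-box transcription factors that repress flowering; *FLC* and *SVP* proteins act at *FT* and *SOC1*, and *FLM* acts with *SVP* in the response to temperature. *FT* encodes the mobile florigen, a small protein of another family that is made in the phloem of leaves in long days and acts at the shoot apex with the bZIP protein FD, where *SOC1*, *FUL* and *AGL24* then promote the floral transition. *AGL42*, a close relative of *SOC1*, also promotes flowering and later delays the ageing of floral organs. The Columbia accession carries a non-functional allele of *FRI*, the main activator of *FLC*, and so has little *FLC* transcript to begin with.

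All of the 10 genes other than *FT* share the MADS box at the start of their proteins, and the first 90 coding bases are shown because they set out how close the members are to each other. They are read from the RefSeq annotation of TAIR10.1, from the transcript with the longest coding sequence, in the direction of transcription; capitals mark bases that differ from *FLC*. *FLC*, *SOC1*, *FUL* and *AGL24* lie on the minus strand of chromosomes 5, 2, 5 and 4, and the others on the plus strand.
FLC: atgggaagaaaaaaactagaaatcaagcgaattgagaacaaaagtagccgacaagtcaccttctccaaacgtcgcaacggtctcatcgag
FLM: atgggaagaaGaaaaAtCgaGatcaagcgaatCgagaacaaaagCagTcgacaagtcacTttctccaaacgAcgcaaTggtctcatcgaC
MAF2: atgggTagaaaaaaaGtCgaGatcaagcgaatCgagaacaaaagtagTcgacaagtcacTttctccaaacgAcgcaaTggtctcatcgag
MAF3: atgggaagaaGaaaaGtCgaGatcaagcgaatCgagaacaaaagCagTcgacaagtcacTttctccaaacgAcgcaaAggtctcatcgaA
SVP: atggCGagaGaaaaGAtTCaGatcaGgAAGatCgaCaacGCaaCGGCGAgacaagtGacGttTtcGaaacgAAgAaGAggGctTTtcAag
AGL24: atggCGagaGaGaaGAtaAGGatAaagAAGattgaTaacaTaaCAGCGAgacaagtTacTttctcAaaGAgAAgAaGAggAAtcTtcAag
SOC1: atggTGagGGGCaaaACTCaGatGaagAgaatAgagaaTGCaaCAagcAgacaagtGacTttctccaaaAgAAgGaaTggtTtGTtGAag
AGL42: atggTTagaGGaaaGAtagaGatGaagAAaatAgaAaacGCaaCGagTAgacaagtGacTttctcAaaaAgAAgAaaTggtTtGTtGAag
FUL: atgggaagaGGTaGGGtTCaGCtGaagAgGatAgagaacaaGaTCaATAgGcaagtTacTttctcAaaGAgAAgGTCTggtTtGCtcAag

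Over the first 180 coding bases *MAF2* and *MAF3*, which are neighbours on chromosome 5, were 94.4% identical, *FLM* and *MAF3* 92.8% and *FLM* and *MAF2* 91.1%, while *FLC* was 82.2 to 85.0% identical to these 3 genes. *SOC1* and *AGL42* were 81.7% identical and *SVP* and *AGL24* 81.1%. The longest identical run between the transcripts of any pair of members had 61 bases (*FLM* and *MAF3*), and for *MAF2* and *MAF3* it had 59. The reads had 150 bases, and none of the 150-base stretches of the members' transcripts occurred elsewhere in the genome or in the transcripts of a locus that shares no bases with the member. Reads of full length without mismatches can therefore be told apart between the family members.

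Among the 10 genes, both mutants had less transcript of the repressors *FLC*, *FLM* and *MAF2* and of promoters of flowering at the same time. In *thp1-5*, 9 of the 10 genes were called lower than in Col at an adjusted p under 0.05 by edgeR's quasi-likelihood test, where 31.8% of the 22400 genes tested were called lower, 32.1% higher and 63.8% in either direction. In *sac3bc* all 10 were called lower, where 33.0% of all genes were called lower, 35.0% higher and 68.0% in either direction. The median log2 fold change of the 10 was −0.94 in *thp1-5* and −0.93 in *sac3bc*, beside 0.015 and 0.03 over all genes tested. Without *FLC*, which passed the filter only through the group where it is high, 8 of 9 and 9 of 9 genes were called lower, with medians of −0.85 and −0.92. By at least 1 on the log2 scale, 5 of the 10 were called lower in *thp1-5* (*FLC*, *MAF2*, *SOC1*, *FUL* and *AGL42*), beside 4.53% of all genes, and 4 in *sac3bc* (the same without *AGL42*), beside 5.57%. In TMM-scaled CPM the libraries of 9 and 10 of the genes lay below all Col libraries, as did those of 32.6% and 33.5% of all genes. The tallies by size of fall and by libraries include *FLC*, which was also called lower in each mutant with no filter on low counts. Both comparisons use the same Col libraries. The shares of all genes called are also the background for the counts on the gene lists below, except those with total counts. TMM scaling bears on the small changes: with total counts alone the median over all genes moved by 0.29 and 0.34 on the log2 scale. Then 16152 and 17261 of the 22400 genes were called, 77.6% and 78.9% of the calls being higher in place of 50.2% and 51.4%. This is the background for list counts with total counts. Of the 10 genes, 8 and 7 were then called lower, with *SVP* called higher in both and medians of −0.65 and −0.60.

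**Figure D1:**
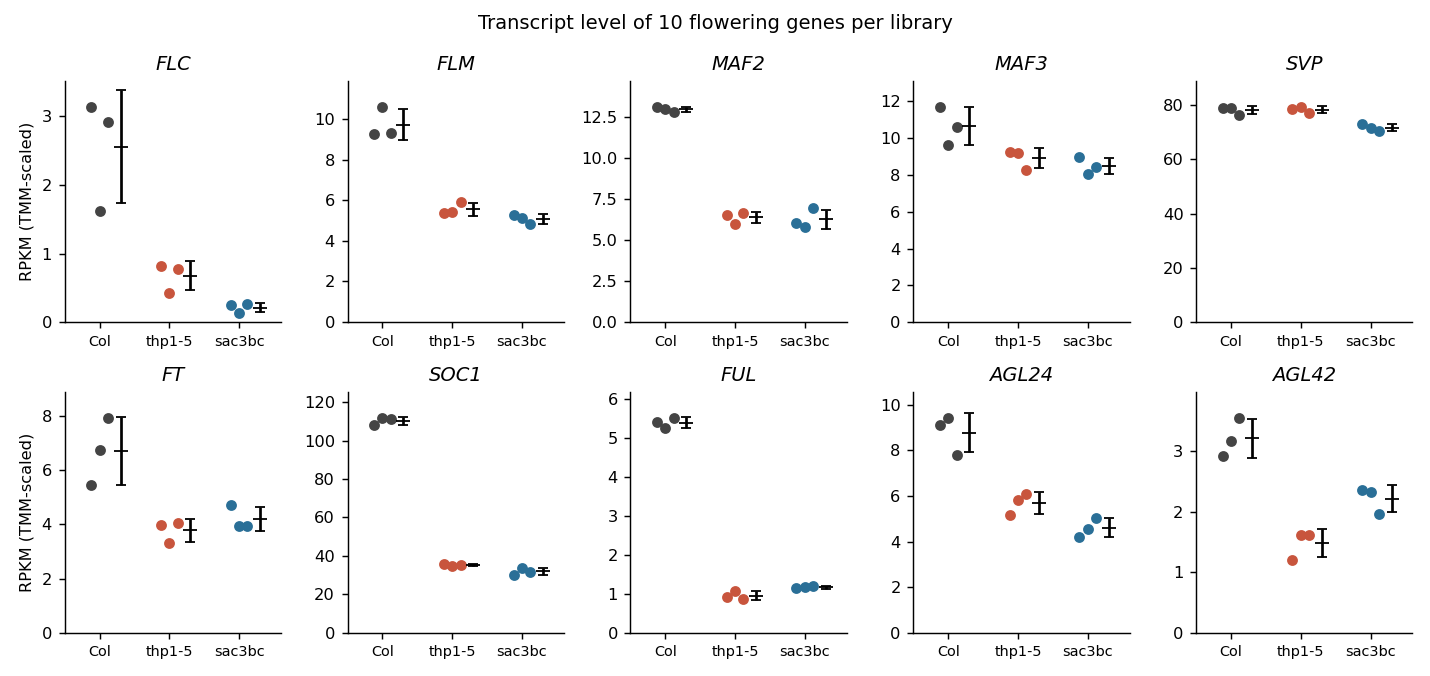
Transcript level (RPKM, CPM per kilobase of transcript, linear axis from 0) of each of the 10 genes in the 3 libraries of Col, thp1-5 and sac3bc. Points are libraries and bars are the mean ± SD (n = 3); FLC, SOC1 and FUL stand well below Col in both mutants, while SVP stays within 70.6 to 79.4 RPKM in all 9 libraries.

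*FLC*, the central repressor, was the least abundant of the 10 per length in every group, and it had the most negative log2 fold change of the 10 in *sac3bc*. Its counts were 42, 26 and 46 in the Col libraries, 13, 9 and 13 in *thp1-5* and 5, 3 and 6 in *sac3bc*. The groups did not overlap in CPM, with every *thp1-5* library below every Col library and every *sac3bc* library below every *thp1-5* library. The log2 fold change was −1.94 ± 0.31 in *thp1-5* (SE, adjusted p = 1.69e-08, edgeR) and −3.54 ± 0.37 in *sac3bc* (adjusted p = 2.97e-16, edgeR). With no filter on low counts the values were −1.94 and −3.54 as well (adjusted p = 1.91e-09 and 5.22e-21, edgeR). *FLC* was higher in *thp1-5* than in *sac3bc* by 1.6 ± 0.48 (adjusted p = 0.00725, edgeR), a call that was lost without *sac3bc* replicate 2 (1.36, adjusted p = 0.0518). As few reads lie behind these values, the ratio of summed counts is also given: it was 0.259 of Col in *thp1-5* (95% exact binomial interval 0.172 to 0.381) and 0.0838 in *sac3bc* (0.0444 to 0.146), intervals that cover counting error alone.

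An antisense locus overlaps *FLC*. AT5G01675, annotated as a long non-coding RNA on the opposite strand, shares 804 of the 1180 exonic bases of *FLC* (68.1%). Its counts were 33, 18 and 37 in Col, 12, 6 and 6 in *thp1-5* and 2, 1 and 5 in *sac3bc*, below those of *FLC* in each library. The locus passed the filter only through the Col libraries, so it is given by the ratio of summed counts to Col, which was 0.23 in *thp1-5* (95% exact interval 0.14 to 0.365) and 0.062 in *sac3bc* (0.026 to 0.128). No source used here gives the strand setting of the counting, so sense and antisense reads in the shared exons cannot be told apart and the values of both loci are not independent.

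**Figure D2:**
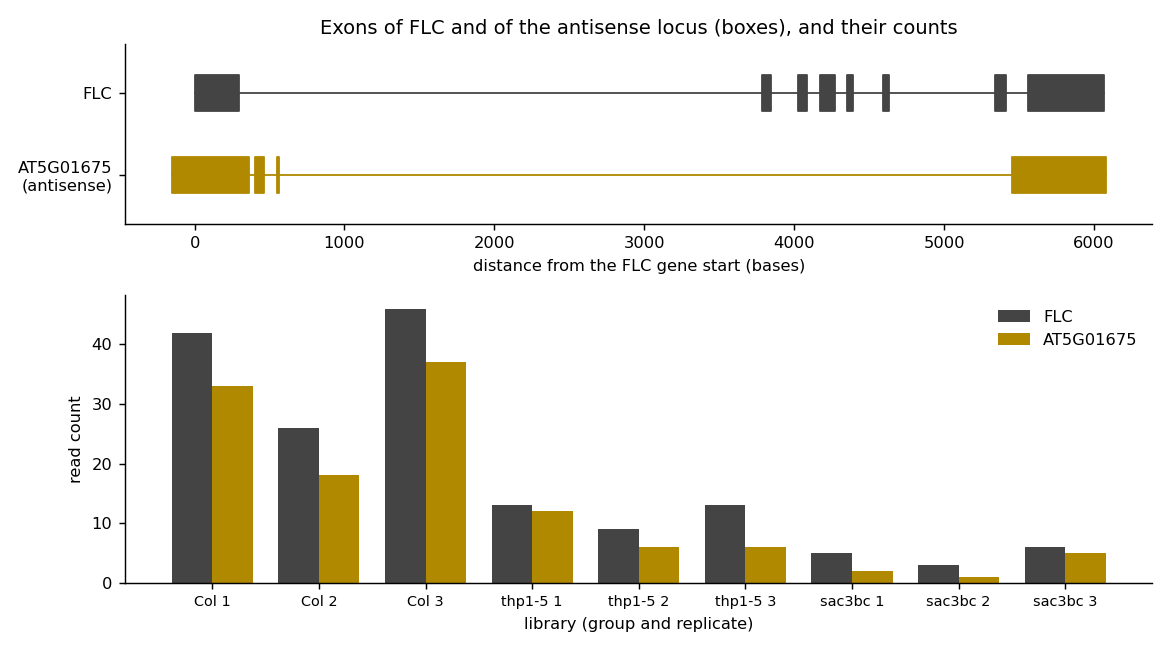
Top, exons (boxes) of FLC and of the antisense locus AT5G01675 against the distance in bases from the FLC gene start; bottom, their read counts (linear axis) in the 9 libraries. The first and the last FLC exons lie within exons of the antisense locus, and the counts of both loci are highest in Col and lowest in sac3bc.

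The other repressors of the *FLC* clade changed less. *FLM* measured 41.5, 47.7 and 41.6 CPM in Col, 24.0, 24.2 and 26.5 in *thp1-5* and 23.6, 23.0 and 21.6 in *sac3bc*. Both mutants stood below all Col libraries, by log2 fold changes of −0.81 ± 0.07 and −0.94 ± 0.06 (SE, adjusted p = 7.17e-23 and 1.15e-28, edgeR). *FLM* makes splice forms with different activities, and counts per gene do not separate them.

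*MAF2*, which keeps plants from flowering after short spells of cold, went from 44.2, 43.9 and 43.3 CPM in Col to 22.0, 20.2 and 22.4 in *thp1-5* and 20.4, 19.6 and 23.4 in *sac3bc*. The mutant libraries overlapped each other and lay below all Col libraries, with log2 fold changes of −1.03 ± 0.07 and −1.05 ± 0.07 (SE, adjusted p = 1.07e-29 and 7.03e-32, edgeR). Between the mutants the difference was 0.02 ± 0.07 (adjusted p = 0.902, edgeR).

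*MAF3*, the neighbour and closest relative of *MAF2*, differed far less from Col. It measured 17.2, 14.1 and 15.5 CPM in Col, 13.5, 13.4 and 12.1 in *thp1-5* and 13.1, 11.8 and 12.3 in *sac3bc*. The log2 fold changes were −0.25 ± 0.10 and −0.33 ± 0.09 (SE, adjusted p = 0.0176 and 0.00141, edgeR). Both calls rest on the scaling, since with total counts the values were 0.03 and 0.01 without a call, and the one in *thp1-5* was lost without Col replicate 1 (adjusted p = 0.132) or *thp1-5* replicate 3 (adjusted p = 0.0911). The ratio of *MAF2* to *MAF3* per length, which no scaling between libraries affects, was 1.11 to 1.34 in Col, 0.649 to 0.802 in *thp1-5* and 0.674 to 0.821 in *sac3bc*. Which of the pair is the higher depends on the lengths used, 3384 and 1464 bases over all annotated exons. In CPM *MAF2* was the higher in every library.

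*SVP*, the partner of *FLC* and *FLM*, hardly moved. Its level was 141, 142 and 137 CPM in Col, 141, 142 and 138 in *thp1-5* and 131, 128 and 126 in *sac3bc*. The Col and *thp1-5* libraries overlapped, with a log2 fold change of 0.01 ± 0.03 (SE, adjusted p = 0.890, edgeR), and the *sac3bc* libraries lay just below both groups, at −0.12 ± 0.03 against Col (adjusted p = 0.000407, edgeR). With total counts *SVP* was called higher in both mutants, by 0.29 and 0.21, so the direction in *sac3bc* is set by the scaling. Under either scaling it was the most abundant of the 10 per length in both mutants, whereas *SOC1* was in Col.

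*FT*, the florigen gene, was measured from 52 to 103 counts per library. It stood at 5.29, 6.55 and 7.73 CPM in Col, 3.87, 3.22 and 3.94 in *thp1-5* and 4.58, 3.84 and 3.83 in *sac3bc*. All 6 mutant libraries lay below the lowest Col library in CPM, by log2 fold changes of −0.85 ± 0.17 in *thp1-5* and −0.69 ± 0.16 in *sac3bc* (SE, adjusted p = 3.23e-06 and 4.58e-05, edgeR). With total counts the values were −0.56 and −0.35 (adjusted p = 0.00164 and 0.0324, edgeR). Relative to total counts alone, *sac3bc* replicate 1 (80 counts of 16.1 M) stood above Col replicate 1 (60 of 13.2 M). The mutants overlapped, with a difference of −0.16 ± 0.17 (adjusted p = 0.565, edgeR).

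Phloem companion cell markers were lower along with *FT* after TMM scaling. The summed level of the 5 markers was 619 to 632 CPM in Col, 427 to 435 in *thp1-5* and 423 to 430 in *sac3bc*, and 4 of 5 were called lower in *thp1-5* and 5 of 5 in *sac3bc* (2 lower and 1 higher in each with total counts). *SUC2*, the sucrose transporter gene of these cells, changed by −0.79 ± 0.03 and −0.87 ± 0.03 (SE). Most of the fall in the sum came from *SUC2* and *PP2-A1*, the latter at means of 165, 86.7 and 103 CPM in Col, *thp1-5* and *sac3bc*. *AHA3* went from 214 CPM in Col to 191 and 180, and was called higher with total counts (0.12 and 0.09). *NAKR1* and *APL* were not called in either mutant with total counts. In bulk seedlings, fewer cells of a type and less RNA per cell cannot be told apart, and the part of the phloem in the *FT* values was not tested.

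*SOC1*, which integrates the signals of *FT*, age and temperature, stood at 168, 175 and 172 CPM in Col, 55.3, 54.1 and 54.6 in *thp1-5* and 46.7, 52.6 and 49.4 in *sac3bc*. No mutant library came near a Col library, and the log2 fold changes were −1.65 ± 0.04 and −1.79 ± 0.04 (SE, adjusted p = 7.79e-76 and 1.74e-81, edgeR). *SOC1* was slightly higher in *thp1-5* than in *sac3bc*, by 0.14 ± 0.05 (adjusted p = 0.0158, edgeR), a call lost with total counts (0.09, adjusted p = 0.149), without *thp1-5* replicate 1 (adjusted p = 0.0542) and without *sac3bc* replicate 1 (adjusted p = 0.140). The ratio of *SOC1* to *SVP* per length fell from 1.37, 1.42 and 1.45 in the Col libraries to 0.453, 0.438 and 0.456 in *thp1-5* and 0.411, 0.474 and 0.451 in *sac3bc*.

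*FUL*, which acts beside *SOC1* in the floral transition and later patterns the fruit, had the largest fall of the 10 in *thp1-5*. It went from 7.06, 6.85 and 7.20 CPM in Col to 1.19, 1.41 and 1.13 in *thp1-5* and 1.49, 1.53 and 1.58 in *sac3bc*. The log2 fold changes were −2.48 ± 0.21 and −2.19 ± 0.19 (SE, adjusted p = 1.38e-21 and 9.3e-21, edgeR). Every *thp1-5* library lay below every *sac3bc* library, yet the difference of −0.29 ± 0.27 was not called (adjusted p = 0.491, edgeR).

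*AGL24*, the relative of *SVP* that promotes flowering, measured 10.5, 10.9 and 9.0 CPM in Col, 5.95, 6.72 and 7.04 in *thp1-5* and 4.87, 5.26 and 5.81 in *sac3bc*. Here the 3 groups did not overlap, and the log2 fold changes against Col were −0.62 ± 0.13 and −0.92 ± 0.13 (SE, adjusted p = 1.18e-05 and 1.62e-10, edgeR). The difference between the mutants, 0.31 ± 0.14, was not called (adjusted p = 0.0928, edgeR). Relative to *SVP*, its level per length was 0.102 to 0.119 in Col, 0.0655 to 0.0790 in *thp1-5* and 0.0575 to 0.0713 in *sac3bc*, so the groups of this ratio did not overlap between Col and either mutant.

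*AGL42* was the one promoter of flowering whose fall was called larger in *thp1-5*. Its level was 4.68, 5.08 and 5.70 CPM in Col, 1.93, 2.6 and 2.6 in *thp1-5* and 3.78, 3.74 and 3.16 in *sac3bc*, and the 3 groups did not overlap. The log2 fold changes were −1.11 ± 0.19 and −0.54 ± 0.17 (SE, adjusted p = 1.84e-07 and 0.00338, edgeR), the latter without a call when total counts were used (−0.21, adjusted p = 0.266). *AGL42* was lower in *thp1-5* than in *sac3bc* by −0.56 ± 0.19 (adjusted p = 0.0214, edgeR), which was lost with DESeq2 (adjusted p = 0.0820), without *thp1-5* replicate 1 (0.129), without *sac3bc* replicate 1 (0.0732) and without *sac3bc* replicate 2 (0.0727). Its ratio to its relative *SOC1* per length rose from 0.0269 to 0.0321 in the Col libraries to 0.0339 to 0.0466 in *thp1-5* and 0.0620 to 0.0784 in *sac3bc*.

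**Figure D3:**
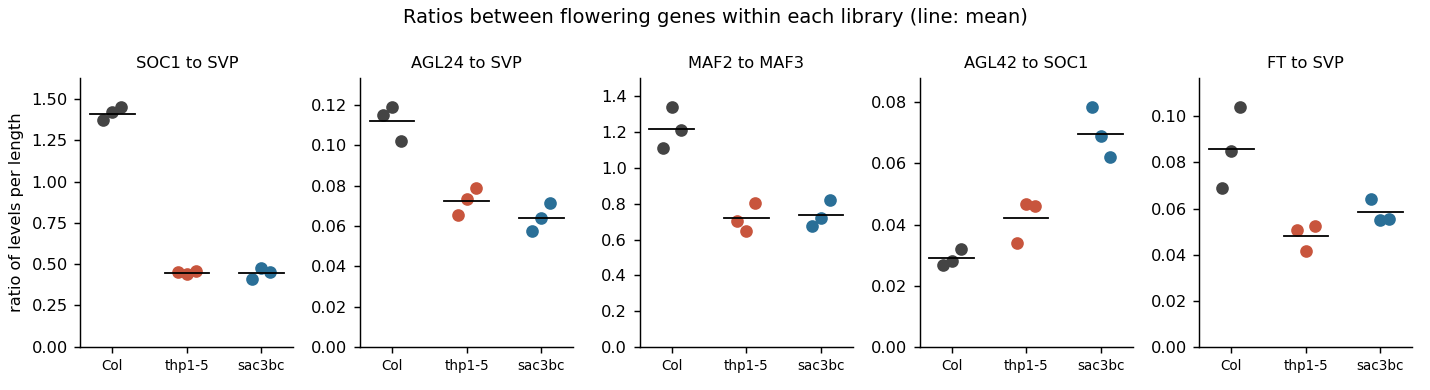
Ratio of levels per length (RPKM over RPKM, linear axes from 0) between pairs of the 10 genes within each library, with 3 libraries per group and the mean as a line. SOC1 to SVP, AGL24 to SVP and MAF2 to MAF3 are higher in every Col library than in any mutant library, and AGL42 to SOC1 is lower.

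The summed level of shoot meristem markers was also lower in both mutants. The 8 markers summed to 126 to 138 CPM in Col, 78.8 to 80.6 in *thp1-5* and 80.8 to 84.7 in *sac3bc*. Most of this sum is *CLV1*, with means of 101, 60.8 and 65.7 CPM. Of the 5 that could be tested, 4 were called lower in *thp1-5* and 5 in *sac3bc* (3 in each with total counts). Only 3 in each mutant had all libraries below those of Col. The meristem gene *STM* had the steepest fall of the 5 (−1.19 ± 0.17 and −1.33 ± 0.16). With total counts *KNAT2* and *KNAT6* were not called (−0.15 and −0.14 in *thp1-5*, −0.36 and 0.02 in *sac3bc*). *WUS*, *CLV3* and *UFO* had 2, 1 and 5 counts over the Col libraries. Over those of each mutant *WUS* and *CLV3* had 0 and *UFO* had 3, too few to give a direction. Leaf mesophyll markers were called lower in 6 of 6 cases in both, summing to 58500 to 60000 CPM in Col, 36100 to 37500 in *thp1-5* and 31200 to 32400 in *sac3bc*. Of 8 root markers 4 were called higher and 1 lower in *thp1-5*, and 5 higher and 1 lower in *sac3bc*; their sum, 3700 to 3770 CPM in Col, 1780 to 1820 in *thp1-5* and 1740 to 1790 in *sac3bc*, follows the abundant *PYK10*. Of the 3 floral organ genes tested, 3 were called lower in *thp1-5* and 1 in *sac3bc* (2 and 1 with total counts). Only 1 of them in each mutant had all its libraries below those of Col. The part of these tissues in the values of *SOC1*, *FUL*, *AGL24* and *AGL42*, which are expressed in the shoot apex among other places, was not tested.

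**Figure D4:**
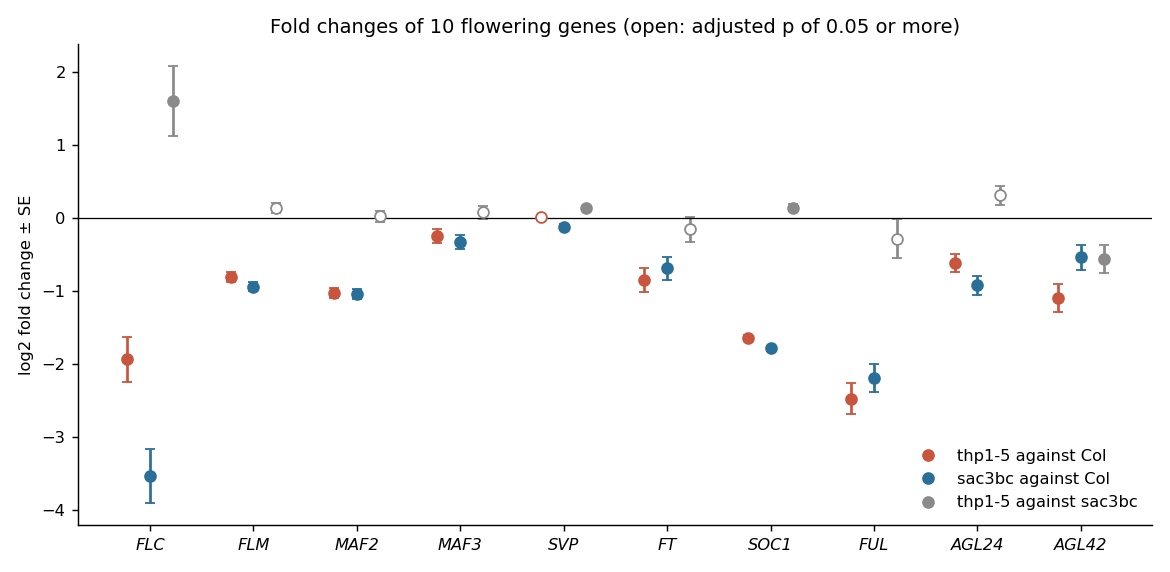
Log2 fold change ± SE of the 10 genes in thp1-5 against Col, sac3bc against Col and thp1-5 against sac3bc (edgeR, 3 libraries per group; open symbols have an adjusted p of 0.05 or more). The falls against Col are largest for FLC, FUL and SOC1 and smallest for MAF3 and, in sac3bc, SVP, directions that change with total counts, and FLC has the largest difference between the mutants.

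Between the mutants, 4 of the 10 genes were called different, *FLC*, *SVP* and *SOC1* higher and *AGL42* lower in *thp1-5*, where 23.0% of all genes tested were called, 12.1% higher and 10.9% lower. Of all calls 52.5% were higher in *thp1-5*. With total counts 5468 genes were called, 32.3% of them higher, and 2 members were called higher and 1 lower. The libraries of the mutants did not overlap for 5 genes that were higher and 2 that were lower in *thp1-5*, beside 17.6% and 17.1% of all genes. *SVP* differed by 0.13 ± 0.03 (SE, adjusted p = 0.000706, edgeR). *FLM*, at 0.13 ± 0.07, and *MAF3*, at 0.07 ± 0.09, were not called (adjusted p = 0.178 and 0.645, edgeR).

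The order of levels per length differed between Col and the mutants. In Col it ran from *SOC1* (111 ± 2.1 RPKM, SD, n = 3) and *SVP* (78.1 ± 1.45) through *MAF2*, *MAF3*, *FLM*, *AGL24*, *FT* and *FUL* to *AGL42* (3.21 ± 0.323) and *FLC* (2.56 ± 0.821). *MAF3* and *FLM*, *FLM* and *AGL24*, *AGL24* and *FT*, *FT* and *FUL*, and *AGL42* and *FLC* overlapped with their neighbour in this order. In the mutants *SVP* came first, at 78.4 ± 1.2 RPKM in *thp1-5* and 71.8 ± 1.33 in *sac3bc*, then *SOC1* at 35.2 ± 0.391 and 31.9 ± 1.89, then *MAF3* and *MAF2*. *FUL* dropped below *AGL42* in both, to 0.954 ± 0.115 and 1.18 ± 0.0359 RPKM, and *FLC* was last, at 0.675 ± 0.213 and 0.212 ± 0.0682. The lengths cover all annotated exons, 4480 bases for *FLM* and 3384 for *MAF2*, which lowers these genes in the order. In CPM both stood above *MAF3* in every group.

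The genes most like 3 of the members over the 9 libraries were sought among 8735 genes with a symbol and at least 1 CPM on average, by Pearson correlation of log2 CPM. For *FLC* these were *LYK3*, *iqd21* (0.989 each) and *RSZ21* (0.988), for *FT* they were *ECR1* (0.979), *NF-YA4* (0.978) and *WRKY4* (0.965), and for *SOC1* they were *TGG2*, *MLP329* and *SBE2.1* (0.999 each). The libraries fall into 3 groups, so such values mostly describe group means: 1297 genes reached 0.95 with *SOC1*, 392 with *FLC* and 16 with *FT*. The likeness is in shape, not in size, as *LYK3* went from 79.2 ± 2.51 CPM in Col to 52.3 ± 1.28 in *sac3bc* while *MLP329*, at 171 ± 2.59, 59.1 ± 1.77 and 55.7 ± 2.18 CPM, had nearly the same levels as *SOC1*.

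Other MADS genes were measured next, some from the clades of the members (such as *MAF4*, *AGL14* and *AP1*) and some from other clades (such as *SEP4*, *AGL12* and *AGL18*). Of 15 listed, 9 could be tested, and 1 was called higher and 4 lower in *thp1-5*, 1 higher and 5 lower in *sac3bc*, with medians of −0.41 and −1.1 on the log2 scale (−0.12 and −0.81 with total counts). Without *MAF5*, which passed the filter only through Col, 4 of 8 were called lower in each mutant. *AGL14*, a relative of *SOC1* expressed mainly in roots, changed by −1.71 ± 0.172 and −1.73 ± 0.165, and *SEP4*, a floral *SEPALLATA* gene, by −1.37 ± 0.11 and −1.76 ± 0.11 (SE, adjusted p of 6.9e-17 or lower for all 4 values, edgeR). *AGL18*, which encodes a repressor of flowering, was the one that rose, by 0.93 ± 0.13 and 0.78 ± 0.13.

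The remaining genes of the *MAF* cluster, *MAF4* and *MAF5*, were called lower in *sac3bc* (−1.33 ± 0.34 and −1.14 ± 0.48, adjusted p = 0.000365 and 0.0309, edgeR), though the *MAF5* libraries overlapped those of Col and its call was lost with total counts (−0.81, adjusted p = 0.120). *MAF5* passed the filter only through Col, and with no filter its value in *sac3bc* was −1.13 (adjusted p = 0.0453, edgeR). In *thp1-5* *MAF4* and *MAF5* stood at −0.07 ± 0.30 and −0.02 ± 0.43 without a call (adjusted p = 0.853 and 0.977, edgeR). *AP1*, a floral meristem identity gene related to *FUL*, was too low to be tested, with 21 counts over the Col libraries, 2 over *thp1-5* and 1 over *sac3bc*. These are ratios of 0.0803 (95% exact interval 0.00913 to 0.329) and 0.0325 (0.000785 to 0.202).

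Of 8 genes of the *FT* family and its partners, 7 could be tested, and 1 was called higher and 5 lower in *thp1-5*, 1 higher and 6 lower in *sac3bc* (medians −0.56 and −0.73; with total counts −0.28 and −0.40, and 3 and 4 called lower). *TFL1*, which encodes an antagonist of *FT* at the shoot apex, passed the filter only through Col, and without it 4 and 5 of 6 were called lower. It measured 3.0, 3.39 and 3.68 CPM in Col, 0.298, 0.452 and 0.352 in *thp1-5* and 0.343, 0.263 and 0.357 in *sac3bc*, so both mutants lay below all Col libraries. With no filter its log2 fold changes were −3.14 and −3.35 (adjusted p = 2.7e-18 and 7.1e-22, edgeR). *FTIP1*, which helps FT protein leave the companion cells, changed by −0.44 ± 0.09 and −0.53 ± 0.08 (−0.15 without a call and −0.19 with total counts). *TSF*, the closest relative of *FT*, went the other way at a very low level, with 1 count over the Col libraries, 17 over *thp1-5* and 9 over *sac3bc*. Its ratios to Col were 14.3 (95% exact interval 2.25 to 599) and 6.14 (0.851 to 269).

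Direct repressors of *FT* included the genes with the clearest rise on any of the lists. *TEM1* and *TEM2* encode RAV-type proteins that repress *FT*. *TEM1* rose from 13.8, 13.0 and 14.1 CPM in Col to 46.3, 45.8 and 42.9 in *thp1-5* and 55.4, 55.9 and 58.6 in *sac3bc*, and *TEM2* rose with log2 fold changes of 1.84 ± 0.05 and 2.03 ± 0.05 (SE, adjusted p = 7.33e-66 and 5.06e-73, edgeR). For *TEM1* the log2 fold changes were 1.72 ± 0.07 and 2.06 ± 0.07 (adjusted p = 8.4e-50 and 1.15e-61, edgeR). Of the 8 genes of this list, 6 were called higher and 2 lower in *thp1-5*, and 3 higher and 1 lower in *sac3bc*, with medians of 0.31 and 0.14 (6 higher and 1 lower, and 7 higher and 1 lower, with total counts).

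Upstream of *FT*, genes of the photoperiod pathway showed small and mixed differences. Over all genes tested, 32.1% were called higher and 31.8% lower in *thp1-5*, and 35.0% and 33.0% in *sac3bc*. Of the 17 tested on this list, 5 were called higher and 6 lower in *thp1-5*, 4 higher and 8 lower in *sac3bc*, with medians of 0.0067 and −0.11. The balance is set by the scaling, as with total counts 13 were called higher and 0 lower in *thp1-5*, 14 higher and 1 lower in *sac3bc*. With total counts 77.6% and 78.9% of the calls over all genes were higher too. *CDF3*, a member of a family of repressors of *CO*, changed by 0.56 ± 0.03 and 0.39 ± 0.03, and *CIB1*, an activator of *FT* in the blue-light pathway, by 0.81 ± 0.07 and 0.80 ± 0.07. *CO*, whose protein switches on *FT* in long days, was measured at 0.882 to 1.80 CPM in Col, 1.04 to 1.69 in *thp1-5* and 0.816 to 1.42 in *sac3bc*. Its groups overlapped and its log2 fold changes of −0.09 ± 0.32 and −0.42 ± 0.32 were not called (adjusted p = 0.815 and 0.251, edgeR). *GI* and *FKF1*, which like *CO* and *FT* cycle over the day, changed by −0.19 ± 0.03 and −0.26 ± 0.05 in *thp1-5* and by −0.24 ± 0.03 and −0.53 ± 0.05 in *sac3bc*, but with total counts *GI* was called higher in both mutants (0.10 each) and *FKF1* stood at 0.02 without a call in *thp1-5* and at −0.20 in *sac3bc*.

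Regulators of *FLC* showed calls in both directions, with a balance that depends on the scaling. Among 13 activators of *FLC*, 5 were called higher and 4 lower in *thp1-5* and 6 higher and 6 lower in *sac3bc*, with medians of 0.036 and −0.083 (9 higher and 3 lower, and 10 higher and 2 lower, with total counts). With TMM scaling 32.1% of all genes were called higher and 31.8% lower in *thp1-5*, and 35.0% and 33.0% in *sac3bc*. With total counts 77.6% and 78.9% of the calls over all genes were higher. *SUF4*, a zinc finger gene needed for *FLC* activation, changed by −0.46 ± 0.06 and −0.62 ± 0.06, while *PIE1*, a chromatin remodeller, rose by 0.39 ± 0.05 and 0.23 ± 0.05. *FRI*, the activator that is not functional in Columbia, rose by 0.74 ± 0.12 and 0.79 ± 0.11.

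The autonomous pathway, whose genes repress *FLC*, had 3 of 8 genes called higher and 1 lower in *thp1-5* and 2 higher and 2 lower in *sac3bc* (medians 0.10 and 0.038; 8 and 7 higher and 0 lower with total counts). *FPA*, which acts in the 3′ processing of *FLC* antisense RNA, rose by 0.58 ± 0.05 and 0.54 ± 0.05. *LD* rose by 0.31 ± 0.06 in *thp1-5*, and *FCA* changed by −0.28 ± 0.07 in *sac3bc*. The direction of *FCA* in *sac3bc* did not hold with total counts, under which it stood at 0.06 without a call (adjusted p = 0.413, edgeR).

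Of 11 Polycomb and vernalization genes tested, 4 were called higher and 3 lower in *thp1-5* and 2 higher and 3 lower in *sac3bc* (8 higher in each, with 1 and 0 lower, with total counts). *VRN5* and *VEL1*, which belong to the same family of plant homeodomain proteins that silence *FLC* after cold, went opposite ways: *VRN5* rose by 0.72 ± 0.08 and 0.74 ± 0.08, and *VEL1* changed by −0.33 ± 0.04 and −0.42 ± 0.04 (−0.04 and −0.09 without a call with total counts). *VIN3*, the member that cold induces, had 18 to 24 counts per group and was not tested.

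In the age pathway, *SPL* genes that are targets of miR156 and activate *SOC1* and *FUL* differed by type. *SPL3* went from 14.3, 17.2 and 18.5 CPM in Col to 6.03, 5.42 and 6.26 in *thp1-5* and 4.06, 4.47 and 4.03 in *sac3bc*, log2 fold changes of −1.51 ± 0.12 and −2.0 ± 0.12 (SE, adjusted p = 8.65e-24 and 4.56e-33, edgeR). *SPL5* changed by −0.85 ± 0.26 and −1.45 ± 0.27. *SPL9*, in contrast, was called higher in *thp1-5*, by 0.27 ± 0.08 (adjusted p = 0.00266, edgeR), and stood at 0.01 ± 0.08 in *sac3bc* without a call (adjusted p = 0.95, edgeR; 0.34 and called higher with total counts). Of the 5 genes tested on this list, 1 was called higher and 3 lower in *thp1-5* and 0 higher and 3 lower in *sac3bc* (2 and 2, and 1 and 3, with total counts).

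**Figure D5:**
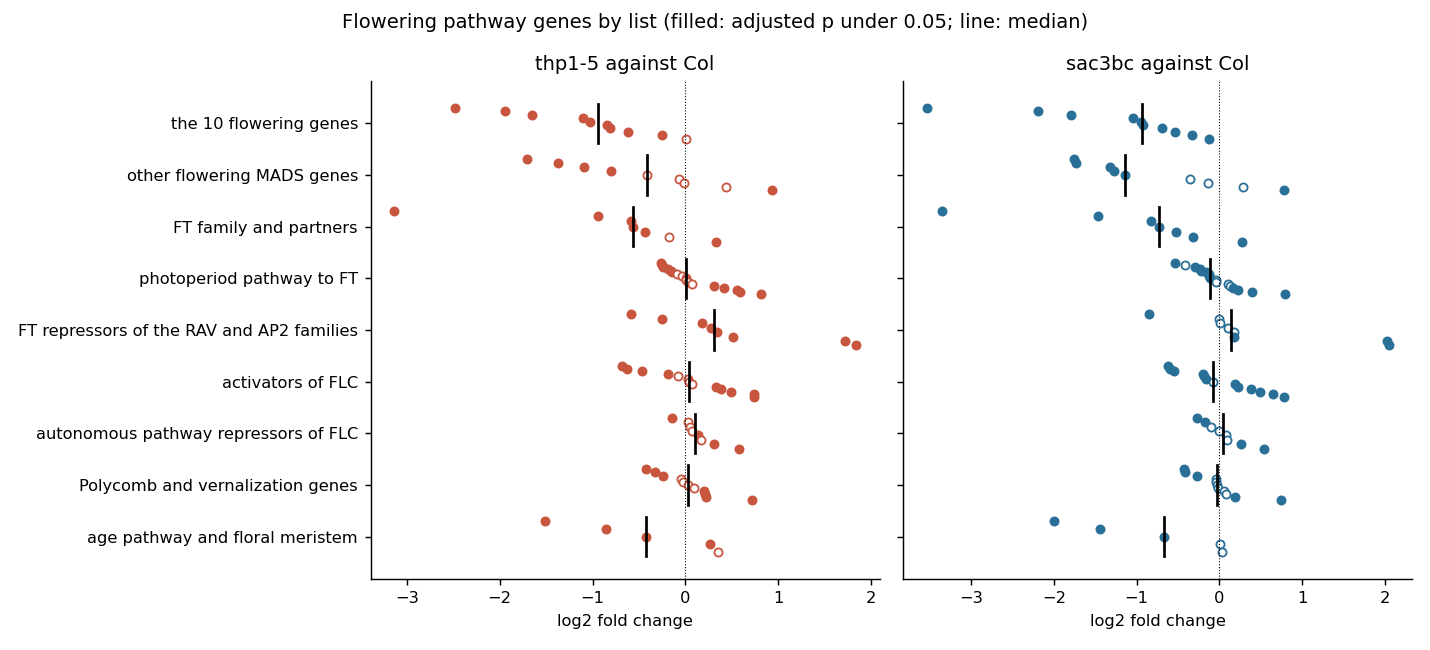
Log2 fold changes against Col of the genes of each flowering list in thp1-5 (left) and sac3bc (right); filled points have an adjusted p under 0.05 and black lines are the list medians. The 10 flowering genes have medians of −0.94 and −0.93 (−0.65 and −0.60 with total counts), while the lists of FLC regulators and the photoperiod pathway centre near 0, or at 0.22 to 0.39 with total counts.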

How the data were processed

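Poly(A) RNA of 9 seedling libraries was sequenced in single-end reads of 150 bases, per the labels' protocols. The authors deposited 1 table per library with raw read counts per locus and a locus length, which was used for RPKM. STAR and DESeq2 are named in the submitters' processing notes without versions; no source used here gives the build, annotation, counter or strandedness. Lengths of 99.51% of the loci with exons in the RefSeq annotation of TAIR10.1 equalled its exon unions.

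Counts of 37361 loci were filtered (edgeR filterByExpr, minimum count 10), which left 22400, scaled by TMM and fitted over all 3 genotypes without covariates (edgeR 4.0.16, limma 3.58.1, R 4.3.3). Benjamini-Hochberg adjustment ran over all genes tested, with calls at an adjusted p under 0.05. DESeq2 1.42.0, total counts, no filter, a replicate block, removal of loci with shared exonic bases and leaving out each library were alternatives. CPM and RPKM use TMM-scaled totals, and logs add 0.5 CPM.

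The members and gene lists were chosen with earlier results of these data known. Of 135 list entries 133 were kept, where the RefSeq symbol matched. The text names the members, the genotype genes, loci sharing exonic bases with a member, up to 2 called genes with the smallest adjusted p per list and mutant, and 3 genes most like *FLC*, *FT* and *SOC1*; *AGL12*, *AGL18*, *MAF4*, *MAF5*, *AP1*, *TSF*, *CO*, *GI*, *FKF1*, *VIN3* and the markers were named after their values were seen. Intervals of count ratios are exact 95% binomial and cover counting error only. Libraries of a group differed by more than sampling noise (chi-square per degree of freedom 1.45 to 1.91).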

Additional observations from a re-analysis of the deposited data

How the results depend on the processing

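Of 506 fold changes of the 10 genes under alternatives, 491 kept their side of the threshold, 11 lost the call, 1 gained it and 3 reversed. A change of sign was counted as a reversal only where the gene was called before or after it. The 491 thus include uncalled sign changes, such as *MAF2* between the mutants (0.02, and −0.03 with total counts). The reversals all came with total counts: *MAF3* at 0.0343 in *thp1-5* and 0.00938 in *sac3bc*, and *SVP* at 0.213 in *sac3bc*, each against Col. Without loci that share exonic bases, 9432 genes were called in *thp1-5* and 10095 in *sac3bc*, as fewer genes were tested. Leaving out 1 library at a time gave 13362 to 14372, 14294 to 15346 and 4179 to 5171 calls for *thp1-5* and *sac3bc* against Col and for *thp1-5* against *sac3bc*. Of the 10 genes, 8 to 9, 10 and 2 to 4 were then called, with 2 between the mutants without *thp1-5* replicate 1, *sac3bc* replicate 1 or *sac3bc* replicate 2. Between the mutants DESeq2 called 3463 genes in place of 5150. The replicate numbers did not pair the libraries (correlations of −0.00758 to 0.0426 between equal numbers), and a replicate block gave 14258, 15202 and 5093 calls, with 9, 10 and 4 of the 10 genes. Depth limits *FLC*, with 3 to 46 counts per library; it gave no value between the mutants when only those groups were fitted, since it then failed the filter, nor where loci with shared exonic bases were left out.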
